A study of Nannospalax ehrenbergi and Mus musculus with 25 samples.

Results

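The blind mole rat Spalax (Nannospalax ehrenbergi in the labels) is a long-lived subterranean rodent studied for its resistance to cancer, here after a single subcutaneous dose of the carcinogen 3-methylcholanthrene (3MCA). In 2 animals, numbered 600 and 976, the injected flank of the neck developed a growth that pathology described as a benign granuloma, with spindle cell proliferation and fibrosis. RNA-seq of that growth, the injected side (IS), was set against tissue from the other side of the neck of the same animals, the uninjected side (UIS). The libraries were chosen by their labels of diagnosis, side and animal, which gave 4 of the 25 libraries of the series, 2 of each side, with every gene of the table kept. Both animals were female and had been caught in the field, both had received 3MCA, and the growths were removed 14 months (animal 600) and 16 months (animal 976) after the injection. The UIS is therefore not untreated muscle. Injected side and kind of tissue cannot be told apart in this comparison, since a growth was set against muscle.

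A granuloma is a chronic inflammatory lesion built of macrophages around material that was not cleared, and with time fibroblasts enclose it in collagen. Fibroblasts at such a site secrete fibrillar collagens, the enzymes that fold and cross-link them, and the proteases and inhibitors that turn the matrix over. Neck muscle, the tissue on the other side, spends most of its messenger RNA on the contractile apparatus, its calcium supply and its energy metabolism.

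The 4 libraries held 19559215 to 22246843 reads assigned to genes. The deposited values are read counts divided by 1 size factor a library, called normalised read counts here, and 1 read was worth 1.21 and 1.18 on the UIS and 0.726 and 0.604 on the IS. Values of a pair are given in the order animal 600, animal 976 throughout. All 4 libraries carry the tissue label muscle, and the muscle markers bore it out only on the UIS, being nearly absent on the IS. Creatine kinase Ckm stood at 377000 and 96460 on the UIS and 208 and 9.06 on the IS, and together Ckm, Acta1, Myh7 and Mb took 6.04% and 1.88% of UIS reads against 0.0126% and 0.000544% of IS reads. The fibroblast markers Col1a1, Pdgfra and Dcn took 0.0557% and 0.0473% of UIS reads and 4.7% and 1.8% of IS reads. Most of that IS share was Col1a1, which alone took 0.00272% and 0.00282% of UIS reads and 4.53% and 1.53% of IS reads. The sum therefore mainly shows that gene, and Dcn did not pass the test below. In bulk tissue, fewer cells of a type and less RNA per cell cannot be told apart. Among the libraries not taken from a growth, the UIS library of animal 976 stood furthest from untreated muscle. The genes used were those tested below, which were filtered on the granuloma libraries. In UIS 976, 1775 of them lay over 2 log2 units from the mean of the untreated control animals, against 385 in UIS 600. The other 10 such libraries (untreated control, tolerant and fibrosarcoma UIS) had 178 to 1256. Here and in the correlations, each control was set against the mean of the other controls only. The correlation of UIS 976 with that mean was 0.901, against 0.964 in UIS 600 and 0.916 to 0.989 in the others. The labels of UIS 976 also carry the number 979 in the library name, while its specimen and column names carry 976. Each library is 1 tissue piece of 1 animal, so n = 2 on each side throughout. The p-values set the difference between the sides against the spread between 2 animals on each side. In limma that spread, and with it the standard error, was moderated, which draws it toward the spread of genes of like level. Reads of near-identical gene copies, and of genes that overlap, could not be told apart here.

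Of 14735 genes with a value of at least 10 in at least 2 libraries, 3581 (24.3%) passed an adjusted p of 0.05 in limma, 1718 of them higher on the IS (11.7%) and 1863 lower (12.6%). In 10289 genes (69.8%) the IS and UIS libraries did not overlap, a share so high that separation by itself says little about a gene, and all 3581 called genes were among them. By direction, both IS libraries lay above both UIS libraries in 5160 of the 14735 genes and below them in 5129. "Rose" and "fell" below are used only of called genes, with the log2 fold change (IS minus UIS, on log2(value + 1), which understates the change of low genes) ± its standard error. Scaling by total reads in place of the size factors moved the median of all genes from -0.013 to 0.72 on the log2 scale and the split of calls from 1718 higher and 1863 lower to 3370 higher and 1126 lower, so the balance of rises and falls rests on the scaling. Gene lists are described below by their counts and medians, to be read beside these shares and the median of -0.013. With 2 animals a side, the counts leaned on each library: 2882 genes were called without UIS 600, 1190 without UIS 976, 224 without IS 600 and 98 without IS 976. The 4 numbers in brackets after a list's count are the genes of that list called without UIS 600, UIS 976, IS 600 and IS 976, in this order. The share of reads that each group of genes took in each library shows how far the tissue differed.

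**Figure D1:**
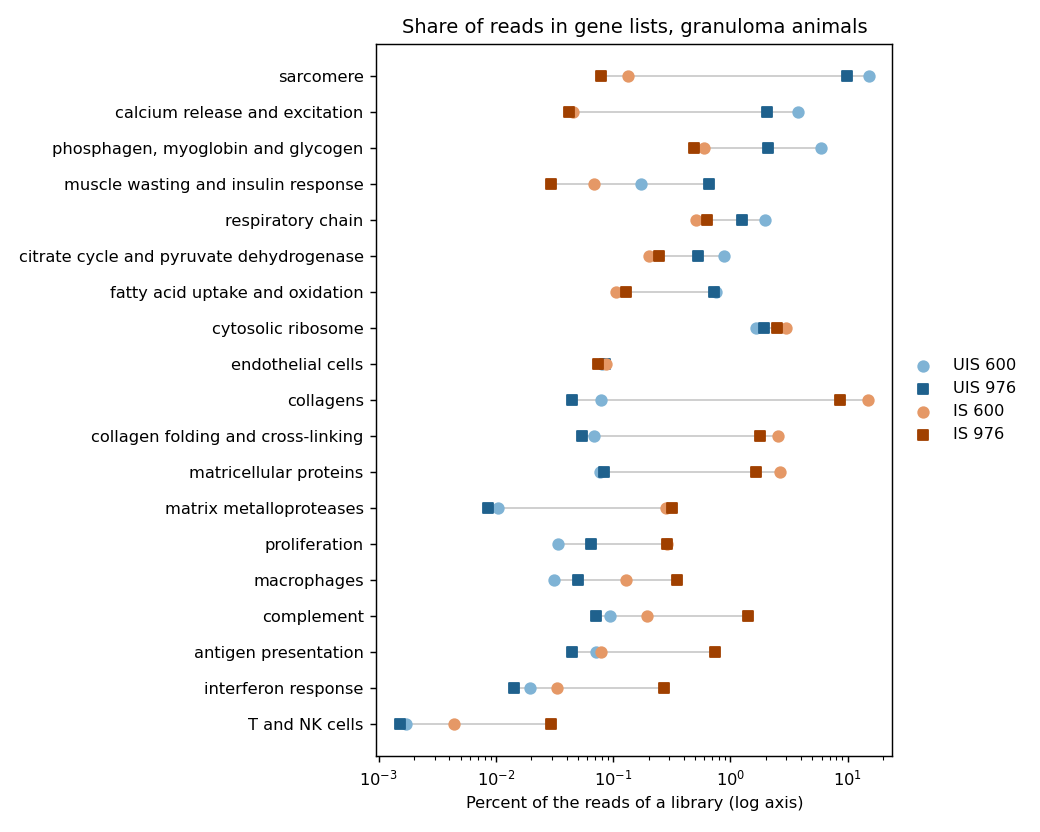
Percent of the reads of a library (x axis, log scale) that fell on 19 gene lists (y axis) in UIS 600, UIS 976, IS 600 and IS 976. Sarcomere genes went from 15.2% and 9.84% on the UIS to 0.134% and 0.0786% on the IS, and collagens from 0.0791% and 0.0444% to 14.9% and 8.66%, while antigen presentation and interferon response genes stood apart only in IS 976.

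Muscle genes made up the largest falls. Of the 14 tested genes of the thick filament and titin, 13 fell (8, 5, 13 and 8), with a median of -10.9. The slow myosin heavy chain Myh7 had values of 38220 and 74900 on the UIS and 87.1 and 0.604 on the IS (log2 fold change -12.14 ± 1.82, adjusted p = 0.0138). The regulatory light chain Myl2 stood at 33230 and 39980 on the UIS and 225 and 0 on the IS (log2 fold change -11.24 ± 2.41, adjusted p = 0.0295). The giant spring protein Ttn, the highest gene of the UIS by its mean, had 551800 and 342000 on the UIS and 1365 and 56.8 on the IS (log2 fold change -10.59 ± 1.46, adjusted p = 0.0115). In all 3 the few transcripts left on the IS were mostly those of animal 600. Of the 18 tested genes of the thin filament and troponin, 17 fell (12, 10, 10 and 7; median -9.3). Nebulin (Neb), which runs along the thin filament, had 259500 and 475800 on the UIS and 666 and 16.9 on the IS (log2 fold change -11.65 ± 1.65, adjusted p = 0.0121). Skeletal actin Acta1 stood at 580400 and 82520 on the UIS and 858 and 56.8 on the IS (log2 fold change -9.94 ± 1.51, adjusted p = 0.0141). Fast troponin T (Tnnt3) stood at 279200 and 221700 on the UIS and 438 and 195 on the IS (log2 fold change -9.73 ± 0.51, adjusted p = 0.0047). The tropomyosins form the cable along the thin filament. Tpm2 had 291200 and 249600 on the UIS and 3552 and 1410 on the IS (log2 fold change -6.91 ± 0.6, adjusted p = 0.00578). Tpm3, also used outside muscle, had 36370 and 37760 on the UIS and 3936 and 4595 on the IS (log2 fold change -3.12 ± 0.39, adjusted p = 0.00946). Cardiac actin Actc1, expressed in muscle before birth, was the thin filament gene that did not pass, at 83.2 and 117 on the UIS and 357 and 7.86 on the IS (adjusted p = 0.754), with IS 600 the highest and IS 976 the lowest of the 4 libraries. Others among the 15 largest falls of named genes were the light chain Myl3, troponin C (Tnnc2), the M-line protein Myom2, leiomodin Lmod2 and the myosin kinase Mylk2, with log2 fold changes of -11.4, -11.58, -12.01, -11.32 and -11.53. Myl3 had 10950 and 6470 on the UIS and 5.08 and 0.604 on the IS. Myom2 had 36730 and 54880 on the UIS and 41.4 and 1.81 on the IS. In each of the 5, both IS libraries lay far below both UIS libraries. LOC103752066, a gene with a provisional symbol and among the 10 highest of the UIS, had 487800 and 29950 on the UIS and 276 and 115 on the IS (log2 fold change -9.4 ± 1.33, adjusted p = 0.0121).

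The genes that release and pump calcium fell with the filaments: 17 of 18 tested fell (10, 8, 9 and 6; median -8.55). The fast calcium pump Atp2a1 had 451200 and 181500 on the UIS and 179 and 76.7 on the IS (log2 fold change -11.24 ± 0.64, adjusted p = 0.0047). Its slow counterpart Atp2a2, which non-muscle cells also use, kept more, at 51850 and 93660 on the UIS and 5563 and 5203 on the IS (log2 fold change -3.69 ± 0.49, adjusted p = 0.0108). The release channel Ryr1 stood at 137000 and 131300 on the UIS and 364 and 10.9 on the IS (log2 fold change -10.99 ± 1.54, adjusted p = 0.0119). The small pump regulator sarcolipin (Sln) had 22840 and 23350 on the UIS and 48.6 and 50.8 on the IS (log2 fold change -8.83 ± 0.31, adjusted p = 0.0047). In each of these the IS libraries lay far below both UIS libraries. Parvalbumin (Pvalb), the soluble calcium buffer of fast fibers, stood at 12050 and 86 on the UIS and 4.36 and 1.81 on the IS (adjusted p = 0.0561, 0.0239 with the animal as a block), and its spread lay on the UIS. Among genes of the phosphagen, myoglobin and glycogen supply, 14 of 21 fell (9, 10, 6 and 1; median -4.35). Myoglobin (Mb), the oxygen store of muscle, had 429200 and 192800 on the UIS and 739 and 6.65 on the IS (log2 fold change -11.9 ± 2.07, adjusted p = 0.0184). Glycogen phosphorylase (Pygm) stood at 98270 and 28840 on the UIS and 81.3 and 33.8 on the IS (log2 fold change -9.96 ± 0.73, adjusted p = 0.00492). The muscle forms of glycolytic enzymes were among the falls. Enolase 3 (Eno3) had 76220 and 29770 on the UIS and 592 and 118 on the IS (log2 fold change -7.48 ± 0.88, adjusted p = 0.00884). The phosphofructokinase Pfkm had 45100 and 29060 on the UIS and 629 and 743 on the IS (log2 fold change -5.72 ± 0.39, adjusted p = 0.0049). The pyruvate kinase of most cells was not: Pkm stood at 25090 and 4815 on the UIS and 14270 and 19480 on the IS (adjusted p = 0.625). Gapdh, often used as a reference gene, had 78140 and 39370 on the UIS and 24770 and 16690 on the IS (adjusted p = 0.129).

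Regulators that hold muscle identity followed. Of 13 tested, 9 fell (6, 4, 2 and 1; median -3.68). The myogenic factor Myf6 had 2950 and 4447 on the UIS and 39.9 and 7.86 on the IS (log2 fold change -7.57 ± 0.81, adjusted p = 0.00767). Myod1, which commits cells to muscle, had 766 and 382 on the UIS and 9.44 and 0 on the IS (log2 fold change -7.39 ± 1.26, adjusted p = 0.0176). Myogenin (Myog), which drives their fusion into fibers, had 1015 and 285 on the UIS and 19.6 and 0 on the IS (log2 fold change -6.89 ± 1.58, adjusted p = 0.0343). The last 2 were at 0 in IS 976. Pax7, which marks the satellite stem cells of muscle, was below the filter at 13.3 and 3.53 on the UIS and 0 and 0 on the IS, and was not tested. Genes of embryonic and regenerating muscle were mixed, with 2 rises and 2 falls among 8 tested (2, 0, 1 and 0). The rises were in genes that mesenchymal and nerve cells also express. Vimentin (Vim) had 4707 and 3112 on the UIS and 73410 and 43370 on the IS (log2 fold change 3.88 ± 0.49, adjusted p = 0.00979). The adhesion molecule Ncam1 had 164 and 274 on the UIS and 4279 and 1867 on the IS (log2 fold change 3.73 ± 0.54, adjusted p = 0.0125). Desmin (Des), the filament that links myofibrils, fell at 135000 and 116800 on the UIS and 3498 and 93 on the IS (log2 fold change -7.77 ± 1.63, adjusted p = 0.028). Embryonic myosin Myh3 stood at 1067 and 13950 on the UIS and 453 and 1.21 on the IS (adjusted p = 0.112), where UIS 976 was 13.1-fold above UIS 600.

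Among genes of muscle wasting and the insulin response several stood higher in UIS 976 than in UIS 600. Of 12 tested, 5 fell (9, 5, 2 and 1; median -4.62). Trim63 and Fbxo32 are the ubiquitin ligases that mark muscle protein for breakdown. Trim63 had 3625 and 36370 on the UIS and 10.9 and 7.86 on the IS (log2 fold change -10.13 ± 1.09, adjusted p = 0.00785). Fbxo32 had 9650 and 38720 on the UIS and 75.5 and 45.9 on the IS (log2 fold change -8.33 ± 0.72, adjusted p = 0.00577). Pdk4, which holds back pyruvate dehydrogenase in fasting, stood at 12430 and 11060 on the UIS and 71.9 and 110 on the IS (log2 fold change -7.03 ± 0.37, adjusted p = 0.0047). The glucose transporter Slc2a4 had 9279 and 2712 on the UIS and 31.9 and 11.5 on the IS (log2 fold change -7.95 ± 0.79, adjusted p = 0.00672). Klf15, a glucocorticoid target, had 676 and 12910 on the UIS and 45.7 and 97.3 on the IS (log2 fold change -5.45 ± 1.39, adjusted p = 0.0439). On the UIS, animal 976 held more than animal 600 of Trim63, Fbxo32, Klf15, Irs2 (792 and 21440), Foxo1 (178 and 2990), Cdkn1a (84.4 and 4011) and Ddit4 (456 and 11410). The IS libraries of the last 4 were 253 and 119, 96.5 and 67.1, 338 and 126 and 7225 and 2167, and none of them passed (adjusted p = 0.0833, 0.135, 0.568 and 0.732). In all 4, UIS 976 was the highest library. Without UIS 600, which leaves UIS 976 as the muscle, 9 of the list were called.

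Energy metabolism of the mitochondria was lower by a smaller and more even amount. Of the 36 tested subunits of complex I, the entry of electrons from NADH, 34 fell (23, 26, 0 and 0), with a median of -2.06, and in all 36 the IS libraries lay below the UIS libraries. Ndufs7, with the largest fall of the list, had 6699 and 3324 on the UIS and 397 and 394 on the IS (log2 fold change -3.57 ± 0.43, adjusted p = 0.00918). Ndufa4, the next of the list, had 19180 and 18930 on the UIS and 1916 and 2711 on the IS (log2 fold change -3.06 ± 0.37, adjusted p = 0.00917). It is named for complex I and counted among the 36 here, but is a subunit of complex IV. Ndufv3, with the smallest difference, stood at 2262 and 1538 on the UIS and 965 and 1531 on the IS (adjusted p = 0.301). Of 18 subunits of complexes II to V, 13 fell (9, 9, 0 and 0; 8 with the animal as a block). Succinate dehydrogenase Sdha had 35900 and 26750 on the UIS and 2165 and 3162 on the IS (log2 fold change -3.57 ± 0.42, adjusted p = 0.00871). The ATP synthase subunit Atp5b had 55200 and 24500 on the UIS and 7761 and 8905 on the IS (log2 fold change -2.15 ± 0.55, adjusted p = 0.0441, 0.0749 with the animal as a block). The citrate cycle list had 17 falls among 22 tested (14, 14, 0 and 0 called either way; median -2.26). Isocitrate dehydrogenase Idh2 stood at 28720 and 17440 on the UIS and 1214 and 1020 on the IS (log2 fold change -4.33 ± 0.4, adjusted p = 0.00634). The 2 members that rose do other work. Acly, which makes cytosolic acetyl-CoA for lipid synthesis, had 1147 and 571 on the UIS and 2698 and 5055 on the IS (log2 fold change 2.19 ± 0.51, adjusted p = 0.0362). Pck2, a mitochondrial phosphoenolpyruvate carboxykinase, had 94.1 and 44.8 on the UIS and 1669 and 534 on the IS (log2 fold change 3.84 ± 0.73, adjusted p = 0.0221). With total reads 16 genes of the complex I list and 6 of the complex II to V list were called.

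Fatty acid genes fell for the most part. Of 26 tested, 20 fell and 1 rose (20, 18, 2 and 1 called either way; median -2.95). The muscle carnitine transferase Cpt1b stood at 9885 and 11600 on the UIS and 187 and 157 on the IS (log2 fold change -5.96 ± 0.32, adjusted p = 0.0047). The liver form Cpt1a was the rise, at 141 and 285 on the UIS and 844 and 980 on the IS (log2 fold change 2.17 ± 0.48, adjusted p = 0.0312). The muscle fatty acid carrier Fabp3 had 11220 and 7038 on the UIS and 164 and 35.6 on the IS (log2 fold change -6.84 ± 0.76, adjusted p = 0.0083). The oxidative coactivator Ppargc1a had 488 and 7355 on the UIS and 5.81 and 1.81 on the IS (log2 fold change -8.76 ± 1.37, adjusted p = 0.0149), with UIS 976 well above UIS 600. Mitochondrial ribosomal proteins were lower by less, with 15 falls among 39 (7, 1, 0 and 0; median -1.17), 3 with total reads and 30 against all 4 UIS libraries. Cytosolic ribosomal proteins had a median of -0.16, which total reads turned to 0.58, so no direction is given for them. The 1 called of 42 was Rpl3, at 5049 and 3520 on the UIS and 16030 and 11140 on the IS (log2 fold change 1.66 ± 0.41, adjusted p = 0.0412, 0.0632 with the animal as a block). The translation factor Eef1a1, of the 10 highest genes of the IS, stood at 20840 and 26700 on the UIS and 106700 and 81720 on the IS (adjusted p = 0.0515).

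**Figure D2:**
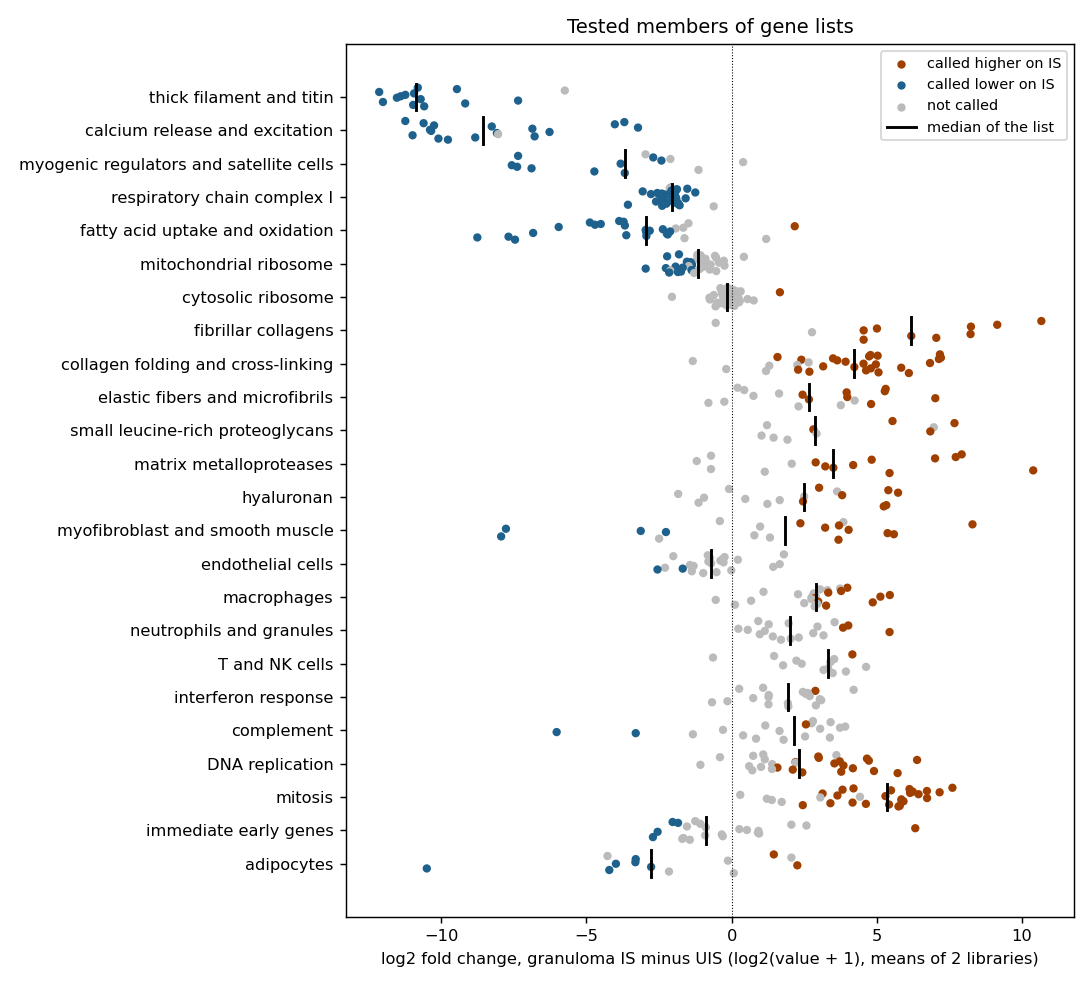
Log2 fold change (IS minus UIS, x axis) of each tested gene of 24 lists (y axis), colored by its call, with the list's median as a bar. Filament and calcium genes lie mostly under -6, and genes of the complex I list in a narrow band around -2.06. Fibrillar collagens lie around 6.19 and mitosis genes around 5.36. Most interferon response and complement genes lie to the right of 0 without being called.

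In their place the IS held matrix. Of 11 tested fibrillar collagens, the rope-forming family, 9 rose (8, 6, 7 and 2; median 6.19). Col3a1, the highest gene of the IS by its mean, had 2489 and 1288 on the UIS and 791000 and 367000 on the IS (log2 fold change 8.23 ± 0.65, adjusted p = 0.00541). The chains of type I collagen were close behind. Col1a1 had 642 and 670 on the UIS and 677300 and 205700 on the IS (log2 fold change 9.15 ± 0.66, adjusted p = 0.00492). Col1a2 had 1564 and 552 on the UIS and 340900 and 233900 on the IS (log2 fold change 8.24 ± 0.63, adjusted p = 0.00541). The ratio of Col1a1 to Col1a2 was thus higher in IS 600 than in IS 976, where Col1a2 was the higher value. Col11a1, a nucleator of fibrils that adult muscle hardly uses, rested on 3 reads in all on the UIS, at 3.62 and 0 on the UIS and 4638 and 2641 on the IS (ratio 2010, counting interval 688 to 9760, adjusted p = 0.00571). The minor fibril chains Col5a1 and Col5a2 rose as well. Col5a1 had 782 and 518 on the UIS and 79780 and 27110 on the IS (log2 fold change 6.19 ± 0.61, adjusted p = 0.0066). Col5a2 had 556 and 237 on the UIS and 46450 and 50120 on the IS (log2 fold change 7.05 ± 0.49, adjusted p = 0.00492). Col27a1 was the member with more in IS 976 by the widest margin, at 176 and 126 on the UIS and 1693 and 7273 on the IS (log2 fold change 4.55 ± 0.73, adjusted p = 0.0158). Cartilage collagen Col2a1 (0 and 7.07 on the UIS and 23.2 and 14.5 on the IS) did not pass (adjusted p = 0.154).

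Among 18 tested non-fibrillar collagens, 10 rose and none fell (11, 5, 2 and 0; median 3.44, 3.33 with Col26a1 at its lower bound). The beaded filaments of collagen VI, which link cells to fibrils, were the most abundant. Col6a3 had 1422 and 875 on the UIS and 85910 and 88060 on the IS (log2 fold change 6.28 ± 0.42, adjusted p = 0.0049). Col6a1 had 1547 and 588 on the UIS and 80780 and 38570 on the IS (log2 fold change 5.87 ± 0.64, adjusted p = 0.0079). Col6a2, of the 10 highest genes of the IS with both, had 985 and 388 on the UIS and 68350 and 52430 on the IS (log2 fold change 6.6 ± 0.54, adjusted p = 0.00557). Col26a1 was at 0 in both UIS libraries and had 37.7 and 68.9 on the IS (at least 14.9-fold higher, adjusted p = 0.013). The basement membrane chains differed. Col4a1 rose at 2250 and 1662 on the UIS and 12000 and 9462 on the IS (log2 fold change 2.46 ± 0.36, adjusted p = 0.0133). Col4a3, of kidney and lung membranes, stood at 102 and 10.6 on the UIS and 0.726 and 3.02 on the IS (adjusted p = 0.0918), with both IS libraries below both UIS libraries, as in Col4a4. Collagen XIV (Col14a1), which sits on fibril surfaces, had 861 and 190 on the UIS and 5421 and 22400 on the IS (log2 fold change 4.76 ± 0.96, adjusted p = 0.0259). Anchoring collagen Col7a1 stood at 162 and 518 on the UIS and 1752 and 18080 on the IS (adjusted p = 0.0542, 0.00918 with the animal as a block), 10.3-fold higher in IS 976 than in IS 600.

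The machinery that folds, trims and cross-links collagen rose with its substrate: 23 of 29 tested rose and none fell (21, 14, 0 and 1; median 4.23). Sparc, a collagen-binding matrix protein, had 3361 and 1946 on the UIS and 223100 and 139200 on the IS (log2 fold change 6.11 ± 0.53, adjusted p = 0.00578). The transcription factor Creb3l1, which drives collagen secretion genes, stood at 10.8 and 17.7 on the UIS and 1930 and 2510 on the IS (log2 fold change 7.21 ± 0.52, adjusted p = 0.00492). The endoplasmic reticulum chaperone Fkbp10 stood at 65.1 and 38.9 on the UIS and 10710 and 4907 on the IS (log2 fold change 7.14 ± 0.53, adjusted p = 0.005). Serpinh1, the collagen-specific chaperone, had 1886 and 177 on the UIS and 27810 and 13430 on the IS (log2 fold change 5.06 ± 1.13, adjusted p = 0.0325). The prolyl hydroxylases P4ha1, P4ha2 and P4ha3 all rose, P4ha2 at 789 and 346 on the UIS and 14720 and 6547 on the IS (log2 fold change 4.23 ± 0.59, adjusted p = 0.0119). The lysyl hydroxylase Plod2, whose product gives the cross-link typical of fibrosis, had 259 and 1835 on the UIS and 20040 and 14670 on the IS (log2 fold change 4.63 ± 0.93, adjusted p = 0.0253). The cross-linking oxidase Lox stood at 9.65 and 40 on the UIS and 2615 and 2176 on the IS (log2 fold change 6.83 ± 0.74, adjusted p = 0.00786). Its relative Loxl2 stood at 113 and 68.3 on the UIS and 5472 and 1420 on the IS (log2 fold change 4.97 ± 0.72, adjusted p = 0.0127). The propeptide proteases Adamts2, Adamts3, Adamts14 and Bmp1 rose as well, Adamts14 at 16.9 and 13 on the UIS and 2149 and 2428 on the IS (log2 fold change 7.18 ± 0.47, adjusted p = 0.0049). The members that did not pass included Plod3, another lysyl hydroxylase, at 803 and 2837 on the UIS and 3205 and 3678 on the IS (adjusted p = 0.22).

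Elastic fiber genes rose in part, 8 of 17 (8, 4, 0 and 0; median 2.66). Fibrillin 1 (Fbn1), the main microfibril protein, had 1868 and 624 on the UIS and 17130 and 17100 on the IS (log2 fold change 3.98 ± 0.58, adjusted p = 0.0127). Fibrillin 2 (Fbn2), typical of development, had 7.24 and 4.71 on the UIS and 3621 and 217 on the IS (log2 fold change 7.02 ± 1.37, adjusted p = 0.0238), and was 16.7-fold higher in IS 600 than in IS 976. Efemp2, which brings lysyl oxidase to elastin, had 96.5 and 24.7 on the UIS and 2571 and 1529 on the IS (log2 fold change 5.31 ± 0.74, adjusted p = 0.0119). Elastin itself (Eln) stood at 69.9 and 171 on the UIS and 208 and 106 on the IS (adjusted p = 0.676), so the scaffold was higher and its core protein did not pass. Small leucine-rich proteoglycans, which space collagen fibrils, had 4 rises among 10 tested (5, 1, 1 and 0; median 2.87). Lumican (Lum) had 1017 and 211 on the UIS and 54200 and 52460 on the IS (log2 fold change 6.84 ± 0.77, adjusted p = 0.0083). Biglycan (Bgn) had 150 and 54.2 on the UIS and 36320 and 9593 on the IS (log2 fold change 7.68 ± 0.8, adjusted p = 0.00728). Asporin (Aspn), which can bind TGF-beta, had 152 and 48.3 on the UIS and 7883 and 2078 on the IS (log2 fold change 5.54 ± 0.84, adjusted p = 0.0141). Fibromodulin (Fmod) had 517 and 147 on the UIS and 2776 and 1370 on the IS (log2 fold change 2.82 ± 0.71, adjusted p = 0.0431). Decorin (Dcn), the most abundant of them on the UIS, stood at 11130 and 9818 on the UIS and 21120 and 28090 on the IS (adjusted p = 0.0914). Epiphycan (Epyc), a cartilage member, was high in IS 976 alone, at 1.21 and 0 on the UIS and 11.6 and 2729 on the IS (adjusted p = 0.0985). Keratocan (Kera) was high in IS 600 alone, at 1.21 and 0 on the UIS and 140 and 0.604 on the IS, below the filter.

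Matricellular proteins, which sit in the matrix and signal to cells, held the largest rise of all genes. Of 20 tested, 9 rose and none fell (9, 10, 2 and 2; median 2.89). Periostin (Postn), made by activated fibroblasts, had 72.4 and 31.8 on the UIS and 214900 and 79750 on the IS (log2 fold change 11.38 ± 0.64, adjusted p = 0.0047). Tenascin C (Tnc), which is typical of wounds, stood at 36.2 and 5.89 on the UIS and 10130 and 17760 on the IS (log2 fold change 9.71 ± 0.86, adjusted p = 0.00586). Cthrc1, a secreted protein of activated fibroblasts, stood at 24.1 and 15.3 on the UIS and 10920 and 8780 on the IS (log2 fold change 8.92 ± 0.42, adjusted p = 0.0047). Fibronectin (Fn1), the first matrix onto which collagen assembles, had 2349 and 955 on the UIS and 82330 and 70520 on the IS (log2 fold change 5.67 ± 0.55, adjusted p = 0.00658). Wisp1, a Wnt-induced member, was at 0 on both UIS and 143 and 114 on the IS (at least 35.9-fold higher, adjusted p = 0.00807). Thrombospondin 2 (Thbs2) had 668 and 241 on the UIS and 23050 and 16610 on the IS (log2 fold change 5.6 ± 0.56, adjusted p = 0.00681). Osteopontin (Spp1) stood at 14.5 and 81.3 on the UIS and 2185 and 56.2 on the IS (adjusted p = 0.234), high in IS 600 alone. Connective tissue growth factor Ctgf, a textbook fibrosis gene, had 679 and 676 on the UIS and 946 and 262 on the IS (adjusted p = 0.647), its lowest value in IS 976. Its relative Cyr61 had 3237 and 6778 on the UIS and 3341 and 1326 on the IS (adjusted p = 0.212).

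Proteases that cut matrix rose, and proteins that hold them in check rose in part. Of 15 tested matrix metalloproteases, 10 rose and none fell (7, 6, 3 and 0; median 3.51). Stromelysin Mmp3 rested on 4 reads in all on the UIS and had 1.21 and 3.53 on the UIS and 6484 and 2794 on the IS (log2 fold change 10.39 ± 0.71, adjusted p = 0.00492). The collagenase Mmp13 stood at 27.7 and 5.89 on the UIS and 3097 and 1059 on the IS (log2 fold change 7.01 ± 0.92, adjusted p = 0.0105). The gelatinase Mmp2 had 710 and 1045 on the UIS and 14130 and 17480 on the IS (log2 fold change 4.19 ± 0.37, adjusted p = 0.00586). The gelatinase Mmp9, also of white cells, had 89.2 and 27.1 on the UIS and 1250 and 3823 on the IS (log2 fold change 5.44 ± 0.81, adjusted p = 0.0135). The membrane protease Mmp14, which activates Mmp2, had 502 and 629 on the UIS and 15720 and 16190 on the IS (log2 fold change 4.83 ± 0.33, adjusted p = 0.0049). The macrophage elastase Mmp12 and the stromelysin Mmp10 were at 0 in both UIS libraries and had 195 and 226, and 404 and 145, on the IS (at least 58.9-fold higher and at least 76.8-fold higher; adjusted p = 0.00658 and 0.00795). The neutrophil collagenase Mmp8 had 127 and 36.5 on the UIS and 164 and 140 on the IS (adjusted p = 0.311), with UIS 600 close to the IS. Of inhibitors, ADAMTS proteases and the plasmin system, 10 rose and 2 fell among 21 tested (9, 6, 1 and 0 called either way). The inhibitor Timp1 rose at 387 and 162 on the UIS and 10930 and 7246 on the IS (log2 fold change 5.14 ± 0.52, adjusted p = 0.00694). Timp4, the muscle and heart member, fell at 486 and 280 on the UIS and 2.18 and 1.81 on the IS (log2 fold change -6.95 ± 0.71, adjusted p = 0.00704). Timp3 stood at 2241 and 8265 on the UIS and 2813 and 1145 on the IS (adjusted p = 0.268). The plasminogen activators rose too, Plau at 314 and 285 on the UIS and 2838 and 3120 on the IS (log2 fold change 3.31 ± 0.32, adjusted p = 0.00658), and Plat with it (adjusted p = 0.0101). Adam12, a protease of activated mesenchyme, had 3.62 and 10.6 on the UIS and 2397 and 1545 on the IS (log2 fold change 8.04 ± 0.69, adjusted p = 0.00571).

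Of the hyaluronan genes, 7 of 16 rose (8, 3, 0 and 0; median 2.48). The synthase Has2 had 39.8 and 4.71 on the UIS and 695 and 947 on the IS (log2 fold change 5.73 ± 1.02, adjusted p = 0.0194). The proteoglycan versican (Vcan), which binds hyaluronan, had 516 and 160 on the UIS and 16540 and 7211 on the IS (log2 fold change 5.24 ± 0.7, adjusted p = 0.0108). The receptor Cd44 had 1124 and 1414 on the UIS and 8135 and 12760 on the IS (log2 fold change 3.01 ± 0.39, adjusted p = 0.00995). Tnfaip6, which cross-links hyaluronan in inflammation, stood at 56.7 and 33 on the UIS and 2544 and 1243 on the IS (log2 fold change 5.33 ± 0.56, adjusted p = 0.00747). The hydrolase Hyal2 had 462 and 326 on the UIS and 548 and 529 on the IS (adjusted p = 0.403). Genes of cartilage, bone and tendon were mixed, with 2 rises and 2 falls among 14 tested (3, 1, 0 and 0). The bone factor Runx2 rose at 6.03 and 3.53 on the UIS and 152 and 92.4 on the IS (log2 fold change 4.41 ± 0.75, adjusted p = 0.0177). The cartilage factor Sox9 rose at 16.9 and 9.42 on the UIS and 332 and 93.7 on the IS (log2 fold change 3.7 ± 0.87, adjusted p = 0.0363). The phosphatases Alpl and Phospho1, which also serve muscle and vessels, fell, Alpl at 1353 and 1695 on the UIS and 87.8 and 161 on the IS (log2 fold change -3.66 ± 0.46, adjusted p = 0.00963). Tenomodulin (Tnmd), a tendon marker, was high in IS 600, at 1.21 and 1.18 on the UIS and 382 and 13.3 on the IS (adjusted p = 0.0764).

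The cells that make such matrix left a partial signature. Among myofibroblast and smooth muscle genes 8 rose and 4 fell of 18 tested (7, 5, 4 and 0 called either way; median 1.85). Cadherin 11 (Cdh11), which joins mesenchymal cells, had 22.9 and 4.71 on the UIS and 5599 and 2414 on the IS (log2 fold change 8.3 ± 0.86, adjusted p = 0.00713). The fibroblast activation protein Fap had 130 and 100 on the UIS and 1041 and 3404 on the IS (log2 fold change 4.03 ± 0.64, adjusted p = 0.0154). The tropomyosin Tpm4 of non-muscle cells rose at 1969 and 1665 on the UIS and 28870 and 18760 on the IS (log2 fold change 3.68 ± 0.4, adjusted p = 0.00768). Smooth muscle myosin Myh11 fell at 698 and 528 on the UIS and 142 and 111 on the IS (log2 fold change -2.26 ± 0.44, adjusted p = 0.0231). The smooth muscle leiomodin Lmod1 fell at 574 and 216 on the UIS and 66.8 and 23 on the IS (log2 fold change -3.13 ± 0.81, adjusted p = 0.0462). Smooth muscle actin Acta2, the defining myofibroblast gene, stood at 1194 and 1034 on the UIS and 2528 and 278 on the IS (adjusted p = 0.795), with IS 600 above and IS 976 below both UIS libraries. Tagln, of the same cells, was also high in IS 600 alone, at 986 and 1277 on the UIS and 6898 and 1141 on the IS. The direction of Acta2 was negative by limma with the authors' size factors and positive by edgeR, DESeq2 and total reads.

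Fibroblast genes and growth factor receptors had 7 rises and 2 falls among 21 (7, 3, 0 and 0 called either way; median 1.78). The mesenchymal transcription factor Twist2 rested on 1 read on the UIS and had 1.21 and 0 on the UIS and 251 and 644 on the IS (ratio 742, counting interval 133 to 29300, adjusted p = 0.00796). Its relative Twist1 had 10.8 and 7.07 on the UIS and 166 and 152 on the IS (log2 fold change 4.03 ± 0.67, adjusted p = 0.0171). Both receptors for platelet-derived growth factor rose, and none of their 4 ligand genes passed. Pdgfra had 1374 and 754 on the UIS and 4878 and 8268 on the IS (log2 fold change 2.64 ± 0.47, adjusted p = 0.0191). Pdgfrb had 855 and 598 on the UIS and 1854 and 3269 on the IS (log2 fold change 1.78 ± 0.43, adjusted p = 0.0377, 0.0546 with the animal as a block). Dermatopontin (Dpt), a fibroblast matrix protein, had 1122 and 494 on the UIS and 7407 and 8536 on the IS (log2 fold change 3.42 ± 0.48, adjusted p = 0.0119). Tbx15, a factor of muscle and skin progenitors, fell at 7499 and 10920 on the UIS and 694 and 725 on the IS (log2 fold change -3.67 ± 0.35, adjusted p = 0.00645). Thy1, another fibroblast marker, had 1160 and 369 on the UIS and 153 and 86.4 on the IS (adjusted p = 0.0543, 0.0316 with the animal as a block), lower in both IS libraries.

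Of the TGF-beta, activin and BMP pathway, 9 of 34 tested rose and 2 fell (7, 5, 0 and 0 called either way; median 0.67). Among ligands, Tgfb1, the main driver of fibrosis, had 171 and 95.4 on the UIS and 616 and 698 on the IS (log2 fold change 2.35 ± 0.48, adjusted p = 0.0264). Tgfb3 had 121 and 188 on the UIS and 879 and 1692 on the IS (log2 fold change 3.01 ± 0.5, adjusted p = 0.0171). The activin subunit Inhba had 9.65 and 0 on the UIS and 143 and 321 on the IS (log2 fold change 6.04 ± 1.3, adjusted p = 0.0296). Among extracellular antagonists, gremlin (Grem1) had 4.82 and 3.53 on the UIS and 1669 and 147 on the IS (log2 fold change 6.6 ± 1.24, adjusted p = 0.0217). Chordin (Chrd) had 30.1 and 50.6 on the UIS and 454 and 398 on the IS (log2 fold change 3.41 ± 0.55, adjusted p = 0.0159). Lrrc15, a marker of TGF-beta-exposed fibroblasts, was at 0 on both UIS and 335 and 149 on the IS (at least 67.6-fold higher, adjusted p = 0.00742). The ligand Bmp4 fell at 260 and 287 on the UIS and 62.4 and 19.3 on the IS (log2 fold change -2.94 ± 0.74, adjusted p = 0.0426, 0.0502 with the animal as a block). The receptor Acvr2b fell at 127 and 182 on the UIS and 3.63 and 4.23 on the IS (log2 fold change -4.96 ± 0.71, adjusted p = 0.0123). The receptor Tgfbr2 had 1471 and 1775 on the UIS and 3451 and 2983 on the IS (adjusted p = 0.0787). The signal transducer Smad2 had 220 and 465 on the UIS and 812 and 846 on the IS (adjusted p = 0.0922).

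Of Wnt ligands, receptors and antagonists, 6 of 21 rose, Fzd1 and Fzd2 among them (5, 5, 1 and 0). The antagonist Dkk3 had 89.2 and 106 on the UIS and 5102 and 7295 on the IS (log2 fold change 5.96 ± 0.37, adjusted p = 0.0049). The antagonist Sfrp4 had 277 and 154 on the UIS and 2583 and 906 on the IS (log2 fold change 2.88 ± 0.63, adjusted p = 0.0305). The non-canonical ligand Wnt5a had 97.7 and 17.7 on the UIS and 605 and 588 on the IS (log2 fold change 3.8 ± 0.88, adjusted p = 0.0349). Its receptor Ror2 had 22.9 and 30.6 on the UIS and 908 and 1042 on the IS (log2 fold change 5.15 ± 0.49, adjusted p = 0.00658).

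Vessel genes gave few calls, while the share of nerve genes called (27.3%) was near that of all genes (24.3%). Of 22 endothelial genes 0 rose and 2 fell (1, 0, 0 and 0; 0 with the animal as a block), with a median of -0.72 that total reads turned to 0.0137. Pecam1, a junction protein of all endothelium, stood at 3849 and 5081 on the UIS and 2048 and 1555 on the IS (adjusted p = 0.0505). The cadherin Cdh5 stood at 1506 and 1406 on the UIS and 1021 and 665 on the IS (adjusted p = 0.153). The receptor Kdr stood at 1398 and 2075 on the UIS and 994 and 1098 on the IS (adjusted p = 0.196). The 2 falls were in the arterial factor Sox17 and the receptor Robo4. Sox17 had 199 and 303 on the UIS and 47.9 and 35 on the IS (log2 fold change -2.55 ± 0.58, adjusted p = 0.0343, 0.0556 with the animal as a block). Robo4 had 564 and 741 on the UIS and 244 and 165 on the IS (log2 fold change -1.68 ± 0.43, adjusted p = 0.0447, 0.0709 with the animal as a block). Of 22 angiogenic and hypoxia genes 2 rose and 1 fell (4, 1, 0 and 0 called). The oxygen-regulated factor Hif1a rose at 509 and 757 on the UIS and 3323 and 3312 on the IS (log2 fold change 2.42 ± 0.35, adjusted p = 0.0127). Its target Ndrg1 rose at 1065 and 697 on the UIS and 14440 and 4170 on the IS (log2 fold change 3.17 ± 0.65, adjusted p = 0.0271). Epas1, the endothelial relative of Hif1a, fell at 4678 and 5305 on the UIS and 1865 and 1120 on the IS (log2 fold change -1.78 ± 0.38, adjusted p = 0.0297). The growth factor Vegfa had 2195 and 443 on the UIS and 5255 and 841 on the IS (adjusted p = 0.501), highest in IS 600. Of 11 tested nerve genes 2 fell and 1, Ncam1, rose (3, 0, 0 and 0). The Schwann cell factor Sox10 fell at 15.7 and 17.7 on the UIS and 1.45 and 0.604 on the IS (ratio 0.0617, counting interval 0.012 to 0.2, adjusted p = 0.0483, 0.0677 with the animal as a block).

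**Figure D3:**
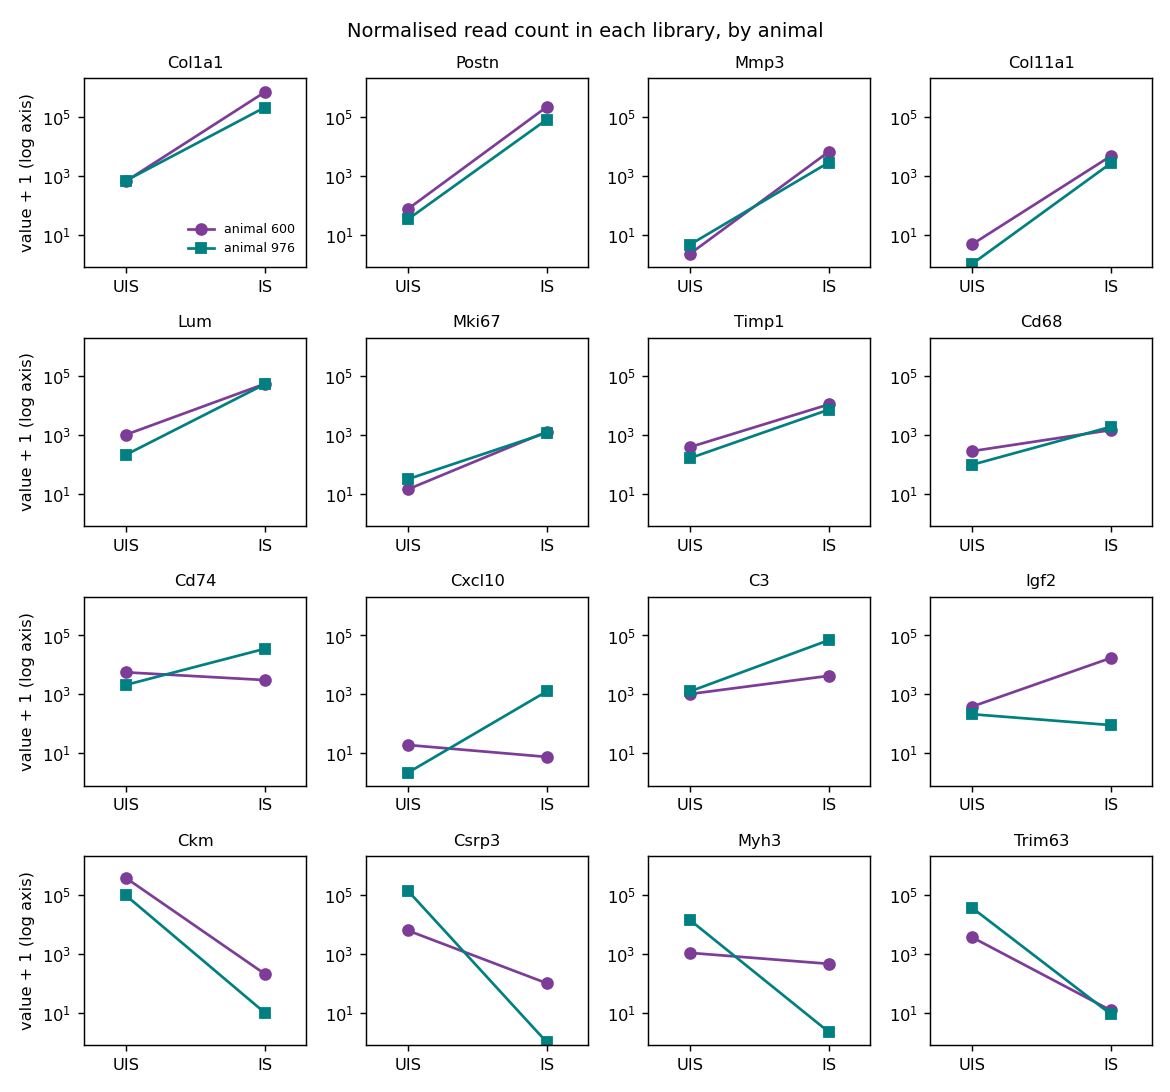
Normalised read count + 1 (y axis, log scale) of 16 genes on the UIS and the IS (x axis), with a line for each animal. Matrix and mitosis genes such as Col1a1, Postn and Mki67 rise in both animals. Cd74, Cxcl10 and C3 part ways between animals mainly on the IS, Trim63 on the UIS, and Csrp3 and Myh3 on both sides.

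Macrophage markers rose in part. Of 24 tested markers 9 rose and none fell (10, 1, 0 and 0; median 2.92), and 5 were called by edgeR, 3 by edgeR with the animal as a block and 19 by DESeq2. The lysosomal marker Cd68 had 282 and 96.6 on the UIS and 1469 and 1898 on the IS (log2 fold change 3.33 ± 0.59, adjusted p = 0.0194). The scavenger receptor Msr1 had 16.9 and 15.3 on the UIS and 296 and 830 on the IS (log2 fold change 4.86 ± 0.71, adjusted p = 0.013). The mannose receptor Mrc1 had 1261 and 477 on the UIS and 4048 and 9319 on the IS (log2 fold change 2.98 ± 0.64, adjusted p = 0.0296). The pan-macrophage adhesion receptor Emr1 had 3.62 and 2.35 on the UIS and 89.3 and 328 on the IS (log2 fold change 5.45 ± 0.91, adjusted p = 0.017). The lipopolysaccharide receptor Cd14 stood at 183 and 37.7 on the UIS and 710 and 1873 on the IS (log2 fold change 3.77 ± 0.9, adjusted p = 0.0376). The growth factor receptor Csf1r, on which macrophages depend, had 796 and 388 on the UIS and 1600 and 4608 on the IS (adjusted p = 0.0552), and in 20 of the 24 both IS libraries lay above both UIS libraries. The resident marker Cd163 (59.1 and 5.89 on the UIS and 26.9 and 67.1 on the IS) overlapped between the sides. Of 20 genes of lipid-laden macrophages and multinucleated giant cells, 10 rose and 3 fell (7, 3, 1 and 0 called either way). The lipid receptor Trem2 was at 0 on both UIS and 68.2 and 99.7 on the IS (at least 23.5-fold higher, adjusted p = 0.00963). Gpnmb had 359 and 462 on the UIS and 3722 and 4652 on the IS (log2 fold change 3.35 ± 0.34, adjusted p = 0.00696). Galectin 3 (Lgals3) had 548 and 703 on the UIS and 2941 and 8897 on the IS (log2 fold change 3.04 ± 0.59, adjusted p = 0.0227). Cathepsin K (Ctsk), a collagen-degrading enzyme, had 158 and 80.1 on the UIS and 766 and 3286 on the IS (log2 fold change 3.81 ± 0.79, adjusted p = 0.0277). Dcstamp, needed for the fusion of giant cells, had at most 1.21 in any library, below the filter. The falls were Lpl, Fabp4 and Ctsd, which muscle and fat also express.

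Markers of other white cells followed with fewer calls in number. Of 18 neutrophil genes 3 rose (8, 0, 0 and 0; 9 with total reads and 1 by edgeR), 1 of them Mmp9, which macrophages and fibroblasts also make. The integrin Itgb2 had 364 and 75.4 on the UIS and 1383 and 4124 on the IS (log2 fold change 3.84 ± 0.9, adjusted p = 0.0365). The peptide receptor Fpr1 had 24.1 and 3.53 on the UIS and 128 and 231 on the IS (log2 fold change 4.02 ± 1.02, adjusted p = 0.044, 0.0504 with the animal as a block). The calprotectin chain S100a8 had 1100 and 297 on the UIS and 2901 and 1902 on the IS (adjusted p = 0.0831, 0.0384 with the animal as a block). Its partner S100a9 had 1489 and 558 on the UIS and 3353 and 2623 on the IS (adjusted p = 0.0738). The UIS held neutrophil transcripts too: S100a8, S100a9, Csf3r and Mpo summed to 2891 and 880.9 on the UIS and 7275 and 5507 on the IS, against 67.41 to 177.1 in the 4 untreated control animals. Of 13 T and NK cell genes 1 rose (1, 0, 0 and 0; 8 by DESeq2 and 1 by edgeR). It was the chemokine Ccl5, at 30.1 and 9.42 on the UIS and 264 and 390 on the IS (log2 fold change 4.16 ± 0.77, adjusted p = 0.0211). The T cell receptor chain Cd3d had 18.1 and 2.35 on the UIS and 28.3 and 292 on the IS (adjusted p = 0.13). The survival receptor Il7r had 50.6 and 15.3 on the UIS and 71.1 and 1174 on the IS (adjusted p = 0.145). Both, like Cd3e, Cd3g and Lck, were far higher in IS 976 than in the other 3 libraries. The checkpoint genes Ctla4, Icos and Pdcd1 had 190, 82.2 and 36.3 in IS 976 and at most 5.08 in IS 600, below the filter. Among B and plasma cell genes Sdc1, Prdm1 and Pou2af1 rose, 3 of 7 (2, 1, 0 and 0). Sdc1 had 122 and 106 on the UIS and 2114 and 2306 on the IS (log2 fold change 4.27 ± 0.36, adjusted p = 0.00557). The B cell markers Ms4a1 and Cd79b had at most 9.67 in any library. Cd79a stood at 61.5 and 156 on the UIS and 13.1 and 32 on the IS (adjusted p = 0.113). Sdc1 and Prdm1 are also expressed outside the B lineage. None of the 3 tested mast cell and eosinophil genes was called by limma or edgeR, 1 had an unadjusted p under 0.05 (Kit, at 31.4 and 10.6 on the UIS and 102 and 102 on the IS), and DESeq2 called 1.

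Antigen presentation and the interferon response divided the animals. Of 16 tested antigen presentation genes 1 rose (0, 0, 0 and 0; 7 by DESeq2 and 1 by edgeR). It was the costimulator Cd86, at 6.03 and 7.07 on the UIS and 50.1 and 179 on the IS (log2 fold change 3.67 ± 0.89, adjusted p = 0.0387). The median difference between the sides was 0.0974 in animal 600 and 4.32 in animal 976. The invariant chain Cd74 had 5603 and 2087 on the UIS and 3064 and 35080 on the IS (adjusted p = 0.364). The class I light chain B2m had 9133 and 7227 on the UIS and 6658 and 52580 on the IS (adjusted p = 0.405). The class II activator Ciita had 77.2 and 1.18 on the UIS and 51.5 and 569 on the IS (adjusted p = 0.219). Of 19 interferon response genes 1 rose, Ifi35 at 62.7 and 28.3 on the UIS and 208 and 486 on the IS (log2 fold change 2.89 ± 0.72, adjusted p = 0.0423, 0.0598 with the animal as a block). DESeq2 called 10, edgeR 0 and the fits without a library 0, 0, 0 and 0, and the median difference was 0.16 in animal 600 and 3.94 in animal 976. The antiviral gene Mx1 had 43.4 and 144 on the UIS and 189 and 2285 on the IS (adjusted p = 0.14, 0.0334 with the animal as a block). The chemokine Cxcl10 had 18.1 and 1.18 on the UIS and 6.53 and 1253 on the IS (adjusted p = 0.299). In each of these 5 genes IS 976 was the highest library, and the values of IS 600 lay far closer to those of the UIS.

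The complement list had 1 rise and 2 falls among 18 (4, 1, 2 and 0; 10 higher by DESeq2 or total reads and 0 by edgeR). Component C3 stood at 1026 and 1257 on the UIS and 4247 and 69060 on the IS (adjusted p = 0.0783, 0.0376 with the animal as a block), 16.3-fold higher in IS 976 than in IS 600. C1qa, made by macrophages, stood at 1623 and 389 on the UIS and 2957 and 10410 on the IS (adjusted p = 0.0744). C1r rose at 1995 and 634 on the UIS and 4922 and 8950 on the IS (log2 fold change 2.56 ± 0.65, adjusted p = 0.0432, 0.0508 with the animal as a block). The membrane inhibitor Cd59 fell at 5013 and 2996 on the UIS and 78.4 and 43.5 on the IS (log2 fold change -6.03 ± 0.49, adjusted p = 0.00541). Adipsin (Cfd), which fat makes, fell at 526 and 430 on the UIS and 40.6 and 55 on the IS (log2 fold change -3.3 ± 0.51, adjusted p = 0.0146).

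Receptors and signals of innate immunity rose in part. Of 18 Toll-like receptor genes 4 rose and none fell (5, 0, 0 and 0), and in 16 both IS libraries lay above both UIS libraries. Tlr2, the sensor of bacterial lipoproteins, had 42.2 and 10.6 on the UIS and 246 and 1100 on the IS (log2 fold change 4.54 ± 1.02, adjusted p = 0.0331). The shared adaptor Myd88 had 216 and 120 on the UIS and 681 and 1008 on the IS (log2 fold change 2.36 ± 0.49, adjusted p = 0.0271). Irak3, which damps the pathway, rose at 96.5 and 54.2 on the UIS and 395 and 531 on the IS (log2 fold change 2.65 ± 0.54, adjusted p = 0.0263). Tlr4 stood at 271 and 162 on the UIS and 488 and 1140 on the IS (adjusted p = 0.0717).

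Of 25 cytokines and receptors 11 rose and none fell (11, 0, 0 and 0; median 2.87). Il1a was at 0 on both UIS and 31.9 and 120 on the IS (at least 21.3-fold higher, adjusted p = 0.0161). The interleukin 6 family members Il11, Lif and Osm rose. Il11 had 1.21 and 0 on the UIS and 53.7 and 112 on the IS (ratio 138, counting interval 24.5 to 5460, adjusted p = 0.0151). Lif had 3.62 and 0 on the UIS and 97.3 and 78.5 on the IS (ratio 48.6, counting interval 16.4 to 237, adjusted p = 0.0219). Osm had 2.41 and 2.35 on the UIS and 90 and 138 on the IS (log2 fold change 5.05 ± 0.74, adjusted p = 0.013). Interleukin 13 receptor genes rose as well. Il13ra1 had 362 and 105 on the UIS and 2031 and 4311 on the IS (log2 fold change 3.92 ± 0.71, adjusted p = 0.0205). The decoy Il13ra2 had 0 and 1.18 on the UIS and 34.8 and 81.6 on the IS (ratio 98.8, counting interval 17.5 to 3930, adjusted p = 0.0195). Il6 itself had 59.1 and 1.18 on the UIS and 298 and 33.2 on the IS (adjusted p = 0.261). The inflammatory cytokine Il1b had 80.8 and 1.18 on the UIS and 488 and 1188 on the IS (adjusted p = 0.0631). Tnf and Ifng were below the filter, with 30.8 and 21.1 in IS 976 and at most 2.18 in the other 3 libraries. Of 16 chemokine genes 4 rose, Cxcl16 and Ccl5 among them (4, 1, 0 and 0). Cx3cr1, of monocytes, had 18.1 and 3.53 on the UIS and 296 and 1149 on the IS (log2 fold change 5.97 ± 1.04, adjusted p = 0.0186). Cxcr4 had 98.9 and 34.1 on the UIS and 769 and 865 on the IS (log2 fold change 3.78 ± 0.64, adjusted p = 0.0172).

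Proliferation genes rose. Of 30 tested mitosis genes 24 rose and none fell (24, 24, 0 and 0; median 5.36). The proliferation marker Mki67 had 13.3 and 30.6 on the UIS and 1286 and 1180 on the IS (log2 fold change 5.86 ± 0.59, adjusted p = 0.00694). The cytokinesis scaffold Anln had 4.82 and 7.07 on the UIS and 1598 and 1115 on the IS (log2 fold change 7.61 ± 0.59, adjusted p = 0.00541). Cyclin B1 (Ccnb1) had 1.21 and 8.24 on the UIS and 787 and 533 on the IS (log2 fold change 7.17 ± 0.9, adjusted p = 0.00963). Topoisomerase Top2a had 61.5 and 78.9 on the UIS and 3542 and 2596 on the IS (log2 fold change 5.42 ± 0.4, adjusted p = 0.00492). The IS values of the 2 animals were 1.09-fold apart for Mki67 and 1.36-fold for Top2a. The mitotic kinase Cdk1 was a partial exception at 371 and 1277 on the UIS and 976 and 734 on the IS (adjusted p = 0.76), with UIS 976 the highest library. Of 28 replication genes 16 rose (13, 11, 0 and 0; median 2.32). The ribonucleotide reductase subunit Rrm2 had 30.1 and 17.7 on the UIS and 634 and 820 on the IS (log2 fold change 4.91 ± 0.56, adjusted p = 0.00852). The helicase subunit Mcm2 had 45.8 and 56.5 on the UIS and 743 and 634 on the IS (log2 fold change 3.73 ± 0.47, adjusted p = 0.00964). Its partner Mcm5 had 73.6 and 37.7 on the UIS and 633 and 616 on the IS (log2 fold change 3.54 ± 0.54, adjusted p = 0.0144). The maintenance methylation factor Uhrf1 had 7.24 and 8.24 on the UIS and 501 and 420 on the IS (log2 fold change 5.72 ± 0.6, adjusted p = 0.00747). Mcm7 had 2367 and 6301 on the UIS and 1258 and 2669 on the IS (adjusted p = 0.251). The polymerase clamp Pcna had 681 and 798 on the UIS and 1299 and 1711 on the IS (adjusted p = 0.0847).

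Cyclins and their inhibitors gave 8 rises and 1 fall among 19 (10, 6, 0 and 0 called either way). Ccnd1, a cyclin of G1 entry, had 18.1 and 3.53 on the UIS and 1053 and 407 on the IS (log2 fold change 6.14 ± 0.95, adjusted p = 0.0146). Its relative Ccnd2 had 18.1 and 1.18 on the UIS and 835 and 519 on the IS (log2 fold change 6.68 ± 1.15, adjusted p = 0.018). Their kinase Cdk6 had 3.62 and 5.89 on the UIS and 206 and 190 on the IS (log2 fold change 5.14 ± 0.69, adjusted p = 0.0109). The inhibitor Cdkn2c rose at 91.7 and 56.5 on the UIS and 723 and 1090 on the IS (log2 fold change 3.61 ± 0.5, adjusted p = 0.0117). The inhibitor Cdkn2b rose at 67.5 and 64.8 on the UIS and 323 and 480 on the IS (log2 fold change 2.56 ± 0.51, adjusted p = 0.0245). The retinoblastoma gene Rb1 fell, at 1934 and 5034 on the UIS and 269 and 304 on the IS (log2 fold change -3.44 ± 0.53, adjusted p = 0.0145). Its relative Rbl1 rose at 28.9 and 18.8 on the UIS and 371 and 434 on the IS (log2 fold change 4.04 ± 0.57, adjusted p = 0.0122).

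Among genes of apoptosis and cell cycle arrest 3 rose and 4 fell of 22 (7, 3, 0 and 0 called either way). The death receptor Fas had 14.5 and 7.07 on the UIS and 91.5 and 191 on the IS (log2 fold change 3.58 ± 0.78, adjusted p = 0.0307). The inflammatory caspase Casp1 had 60.3 and 20 on the UIS and 221 and 1029 on the IS (log2 fold change 3.74 ± 0.97, adjusted p = 0.0456, 0.0551 with the animal as a block). Bax, which opens mitochondria in apoptosis, had 292 and 344 on the UIS and 907 and 741 on the IS (log2 fold change 1.37 ± 0.37, adjusted p = 0.049, 0.0828 with the animal as a block). The falls were Ccng1, Sesn1, Mdm2 and the survival gene Bcl2. Ccng1 had 41210 and 20960 on the UIS and 1981 and 1254 on the IS (log2 fold change -4.22 ± 0.5, adjusted p = 0.00884). Sesn1 had 2602 and 4447 on the UIS and 311 and 316 on the IS (log2 fold change -3.44 ± 0.39, adjusted p = 0.00844). Mdm2, a ubiquitin ligase, had 4742 and 13720 on the UIS and 1664 and 1287 on the IS (log2 fold change -2.46 ± 0.57, adjusted p = 0.0359). Bcl2 had 414 and 557 on the UIS and 109 and 91.2 on the IS (log2 fold change -2.26 ± 0.46, adjusted p = 0.0264). Of 27 crosslink repair and recombination genes 6 rose (5, 4, 0 and 0). Fancd2 had 33.8 and 38.9 on the UIS and 909 and 834 on the IS (log2 fold change 4.55 ± 0.47, adjusted p = 0.00704).

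Growth factor and oncofetal genes had 6 rises and 1 fall among 17 (7, 1, 0 and 0 called either way). The fetal chromatin protein Hmga2 rested on 2 reads on the UIS and had 2.41 and 0 on the UIS and 192 and 84.6 on the IS (ratio 115, counting interval 31.6 to 951, adjusted p = 0.0158). The RNA-binding protein Igf2bp2 had 36.2 and 35.3 on the UIS and 1127 and 513 on the IS (log2 fold change 4.37 ± 0.58, adjusted p = 0.0108). The insulin-like growth factor Igf1 rose at 258 and 63.6 on the UIS and 920 and 1451 on the IS (log2 fold change 3.16 ± 0.74, adjusted p = 0.0364). The hepatocyte growth factor Hgf rose at 6.03 and 2.35 on the UIS and 63.9 and 105 on the IS (log2 fold change 4.09 ± 0.82, adjusted p = 0.0251). Of the binding proteins, Igfbp2 and Igfbp4 rose and Igfbp6 fell. Igfbp2 had 22.9 and 30.6 on the UIS and 916 and 205 on the IS (log2 fold change 3.98 ± 0.85, adjusted p = 0.0294). Igfbp4 had 1616 and 1920 on the UIS and 10120 and 8212 on the IS (log2 fold change 2.37 ± 0.34, adjusted p = 0.0124). Igfbp6 had 474 and 385 on the UIS and 42.8 and 44.7 on the IS (log2 fold change -3.26 ± 0.51, adjusted p = 0.0146). Igf2 and its receptor Igf1r split the animals. Igf2 stood at 382 and 211 on the UIS and 17160 and 89.4 on the IS (adjusted p = 0.534). Igf1r stood at 293 and 322 on the UIS and 9753 and 38.7 on the IS (adjusted p = 0.785). For both, IS 600 was the highest and IS 976 the lowest of the 4 libraries. Igf2bp1, another oncofetal gene, was at 0 on both UIS and 134 and 9.67 on the IS, below the filter. Igfbp5 moved the other way, at 12770 and 100 on the UIS and 3714 and 13220 on the IS (adjusted p = 0.418), with UIS 976 the lowest.

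Immediate early genes, which answer stimulation and tissue handling within minutes, had 1 rise and 4 falls among 22 (6, 2, 0 and 0; 3 called with the animal as a block). Fosl1 was the rise, at 10.8 and 7.07 on the UIS and 782 and 786 on the IS (log2 fold change 6.33 ± 0.58, adjusted p = 0.00631). Jun fell at 5681 and 8784 on the UIS and 1497 and 972 on the IS (log2 fold change -2.55 ± 0.41, adjusted p = 0.0158). Nr4a1 fell at 2463 and 1007 on the UIS and 324 and 178 on the IS (log2 fold change -2.71 ± 0.58, adjusted p = 0.0293). Fos had 4104 and 412 on the UIS and 773 and 258 on the IS (adjusted p = 0.366), with UIS 600 the highest. Atf3 had 334 and 2222 on the UIS and 388 and 337 on the IS (adjusted p = 0.344), with UIS 976 the highest. The aryl hydrocarbon receptor Ahr, through which 3MCA acts, rose at 71.2 and 22.4 on the UIS and 802 and 706 on the IS (log2 fold change 4.2 ± 0.68, adjusted p = 0.0159). It was the 1 called of 6 tested genes of that pathway (3, 1, 0 and 0). Its repressor Ahrr had 2.41 and 0 on the UIS and 21.8 and 14.5 on the IS (adjusted p = 0.0628). Its partner Arnt had 2716 and 3101 on the UIS and 2331 and 1858 on the IS (adjusted p = 0.32). Its target Tiparp had 995 and 10680 on the UIS and 1222 and 1119 on the IS (adjusted p = 0.354). Of 19 antioxidant genes 2 rose and 4 fell (4, 2, 0 and 0 called either way). Heme oxygenase Hmox1 had 375 and 495 on the UIS and 4402 and 1497 on the IS (log2 fold change 2.57 ± 0.58, adjusted p = 0.0332). The glutathione synthesis subunit Gclm fell at 1661 and 2670 on the UIS and 234 and 95.5 on the IS (log2 fold change -3.81 ± 0.56, adjusted p = 0.013). The mitochondrial peroxiredoxin Prdx3 fell at 6705 and 4094 on the UIS and 806 and 1118 on the IS (log2 fold change -2.46 ± 0.4, adjusted p = 0.016). Sod2 stood at 20880 and 120200 on the UIS and 14060 and 18830 on the IS (adjusted p = 0.235), highest in UIS 976.

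Secretory pathway genes rose in part, 7 of 27, with 1 fall (7, 3, 0 and 0 called either way; 15 higher with total reads). The translocon subunit Sec61a1 had 428 and 476 on the UIS and 5484 and 3182 on the IS (log2 fold change 3.21 ± 0.39, adjusted p = 0.00925). The disulfide isomerase Pdia4 had 584 and 287 on the UIS and 7500 and 5196 on the IS (log2 fold change 3.93 ± 0.46, adjusted p = 0.0089). Calreticulin (Calr) had 4476 and 5175 on the UIS and 24160 and 19490 on the IS (log2 fold change 2.17 ± 0.38, adjusted p = 0.0191). Herpud1, which helps degrade misfolded proteins, fell at 8463 and 18840 on the UIS and 1947 and 1413 on the IS (log2 fold change -2.93 ± 0.5, adjusted p = 0.0177). The stress sensor chaperone Hspa5 stood at 6530 and 26120 on the UIS and 26600 and 14770 on the IS (adjusted p = 0.598). Fat genes had 6 falls and 2 rises among 13 (4, 2, 2 and 1 called either way; median -2.77). The lipid droplet protein Plin4 fell at 7813 and 5294 on the UIS and 7.99 and 1.21 on the IS (log2 fold change -10.5 ± 0.8, adjusted p = 0.00541). The fatty acid carrier Fabp4 fell at 4510 and 3375 on the UIS and 521 and 115 on the IS (log2 fold change -3.98 ± 0.74, adjusted p = 0.0213). The synthesis enzymes Fasn and Acaca rose, Fasn at 693 and 373 on the UIS and 3383 and 1773 on the IS (log2 fold change 2.26 ± 0.5, adjusted p = 0.0315). Of the keratins of skin, Krt15 and Krt17 had at most 4.83 in any library and Krt14 had 88.8 in IS 976 alone, while Krt10 had 754 and 790 on the UIS and 164 and 329 on the IS (adjusted p = 0.0525). Of 5 tested epithelial genes Tp63 fell, at 238 and 1634 on the UIS and 0.726 and 1.81 on the IS (log2 fold change -8.15 ± 1.09, adjusted p = 0.0109). Hemoglobin Hbb had 5992 and 1088 on the UIS and 6803 and 2068 on the IS (adjusted p = 0.7). Of 10 tested blood and iron genes 1 rose and 1 fell (0, 1, 0 and 0 called). The ferritin light chain Ftl rose at 4626 and 6627 on the UIS and 28750 and 19550 on the IS (log2 fold change 2.1 ± 0.44, adjusted p = 0.028, 0.0575 with the animal as a block). The iron exporter Slc40a1 fell at 2034 and 538 on the UIS and 157 and 170 on the IS (log2 fold change -2.67 ± 0.69, adjusted p = 0.0456).

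A small network of matrix genes and partners was picked by the study on these samples, so its counts are not independent evidence: of 8 tested 2 rose, Lum and Aspn, and 1 fell, Jun (3, 1, 0 and 0 called either way). The rest did not pass. The osteomodulin gene Omd had 8.44 and 14.1 on the UIS and 9.44 and 56.2 on the IS (adjusted p = 0.506). The Wnt antagonist Sfrp1 had 406 and 505 on the UIS and 367 and 2429 on the IS (adjusted p = 0.418). Fibulin 5 (Fbln5) had 654 and 245 on the UIS and 796 and 573 on the IS (adjusted p = 0.366). The transcription factor Cebpa had 69.9 and 36.5 on the UIS and 247 and 186 on the IS (adjusted p = 0.0639). Chad, a cartilage proteoglycan, stayed below the filter at 3.62 and 1.18 on the UIS and 51.5 and 6.65 on the IS. Of the 11 other tested genes that the study named, also on these samples, 3 rose (Creb3l1, Emilin2 and Ifnar2) and 1 fell (Mtor; 4, 3, 0 and 0 called either way). Emilin2, an elastic fiber protein, had 378 and 156 on the UIS and 4360 and 3303 on the IS (log2 fold change 3.96 ± 0.51, adjusted p = 0.0102). The growth kinase Mtor had 6059 and 3841 on the UIS and 842 and 1065 on the IS (log2 fold change -2.35 ± 0.38, adjusted p = 0.0158). Bmp7 had 50.6 and 14.1 on the UIS and 90 and 1012 on the IS (adjusted p = 0.112), high in IS 976.

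The difference between the sides had the same sign in both animals in all 3581 called genes, which the call itself favors with 2 animals a side, and in 563 of these the differences of the animals lay over 2 log2 units apart. Its median over the genes called higher was 2.91 in animal 600 and 3.59 in animal 976, and over those called lower -2.83 and -2.89. Over all 14735 genes the differences of the animals correlated at 0.772 (Spearman 0.737), a description across genes that share libraries. The sign was opposite in 3299 genes, and the differences lay over 2 log2 units apart in 2680 genes (18.2%), in 1689 of which the larger gap was between the UIS libraries. Between animals the median absolute log2 difference was 0.683 on the UIS and 0.443 on the IS. The largest gaps, among genes with a mean of at least 100, were in the transcription factor Zic2, LOC103734123, Ttc22, Myh3 and the muscle stress protein Csrp3. Zic2 had 0 and 518 on the UIS and 219 and 4.83 on the IS. LOC103734123 had 0 and 2344 on the UIS and 42.8 and 5.44 on the IS. Ttc22 had 10.8 and 8855 on the UIS and 254 and 64.7 on the IS. Csrp3 had 6147 and 138200 on the UIS and 98.7 and 0 on the IS. In all 5 UIS 976 was the highest library. Nrap, another filament assembly protein, had 160600 and 473200 on the UIS and 283 and 59.2 on the IS, also highest there. On the IS the gaps fell by list. Collagens took 14.9% of reads in IS 600 and 8.66% in IS 976, complement 0.193% and 1.4%, antigen presentation 0.0791% and 0.732%, and T and NK cell genes 0.00435% and 0.0295%.

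**Figure D4:**
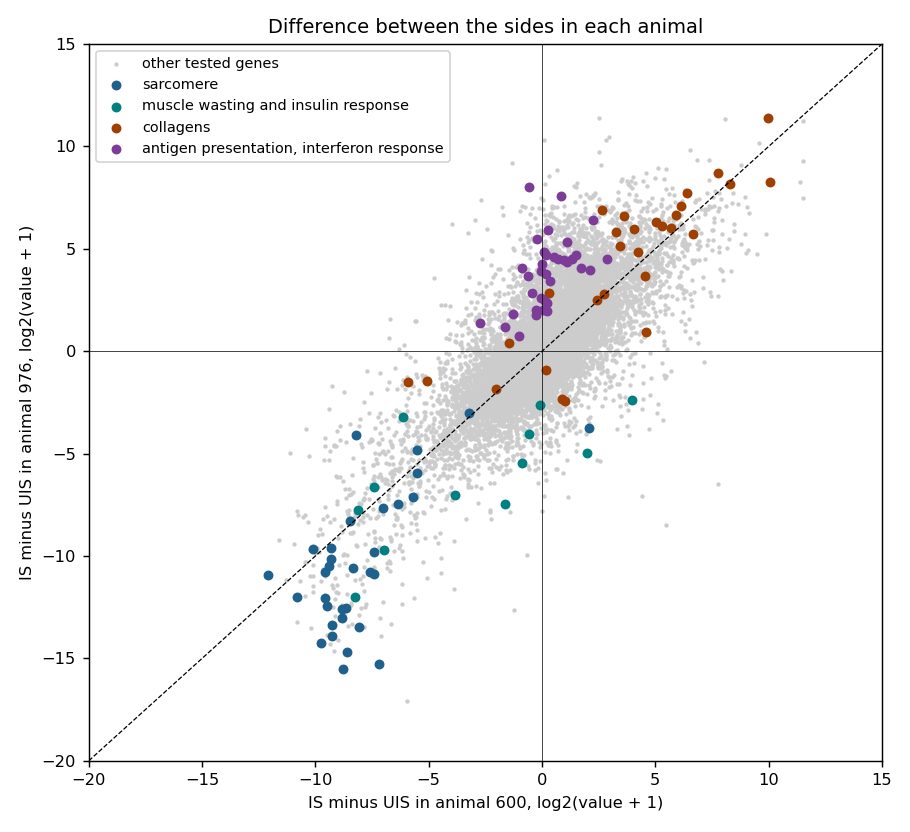
Difference between the sides (IS minus UIS, log2(value + 1)) in animal 600 (x axis) and animal 976 (y axis) for each tested gene, with the line of equal difference. Collagens lie near the line with a few exceptions, most sarcomere genes lie under it, and most antigen presentation and interferon response genes lie high on the axis of animal 976 and near 0 on that of animal 600.

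How these differences compared with those in malignant growths was asked of the fibrosarcomas of animals 2230 and 2240, which developed after the same injection and were sampled in the same way 30 and 18 months after it. Animal 2230 was male and animal 2240 female, while both granuloma animals were female and their growths were removed earlier. Sex and time since injection thus differed along with the lesion. The difference between the sides in fibrosarcoma minus that in granuloma was tested in 15584 genes. None passed in limma (smallest adjusted p = 0.083), 766 had an unadjusted p under 0.05 (4.92%), none passed in edgeR, and DESeq2 called 88. No gene or list is therefore shown by limma to differ between the lesions, and the values below are side by side descriptions. The unadjusted p was under 0.05 in 9 of the 11 fibrillar collagens, 11 of the 29 folding and cross-linking genes, 5 of the 10 leucine-rich proteoglycans and 9 of the 28 replication genes. The median of fibrillar collagens was 6.19 in granuloma and 3.23 in fibrosarcoma, and of the folding genes 4.23 and 1.93. Postn, at 267 and 602 on the UIS and 4003 and 6841 on the IS of the fibrosarcoma animals, had a difference of 3.7 there and 11.38 in granuloma (adjusted p = 0.328 in limma). Lum had 2603 and 5189 on the UIS and 2843 and 1302 on the IS there, a difference of -0.93 against 6.84 (adjusted p = 0.443), and Aspn -0.99 against 5.54 (adjusted p = 0.697). For Creb3l1 the differences were 2.57 and 7.21 (adjusted p = 0.642) and for Sparc 2.71 and 6.11 (adjusted p = 0.642).

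The median of the replication list was 3.6 in fibrosarcoma and 2.32 in granuloma, and of the mitosis list 6.08 and 5.36. Mki67 had 5.69 and 7.27 on the UIS and 3859 and 3823 on the IS of the fibrosarcoma animals, a difference of 9.01 against 5.86 (adjusted p = 0.946 in limma), and Mcm5 6.93 against 3.54 (adjusted p = 0.946). The median of the metalloproteases was 5.08 in fibrosarcoma and 3.51 in granuloma, and 2 of 15 had an unadjusted interaction p under 0.05. In fibrosarcoma and granuloma in turn, the differences of some were 4.27 and 4.19 for Mmp2, 5.54 and 5.44 for Mmp9 and 5.21 and 4.83 for Mmp14. Mmp8 had 5.08 against 1.14 (adjusted p = 0.946). The smallest p of all belonged to sarcolipin (Sln), at 0.6 and 0 on the IS of fibrosarcoma and 48.6 and 50.8 on that of granuloma. Adipsin (Cfd) had a difference of 0.87 in fibrosarcoma and -3.3 in granuloma (adjusted p = 0.328). The unadjusted interaction p was under 0.05 in 5 of 32 sarcomere genes, 0 of 54 respiratory chain subunits, 0 of 24 macrophage genes and 1 of 19 interferon genes. A p above the threshold does not show that the lesions were alike, and with 2 animals of each lesion the animals' own differences enter every comparison. In the granuloma animals these were wider on the UIS (median absolute log2 difference 0.683) than on the IS (0.443).

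**Figure D5:**
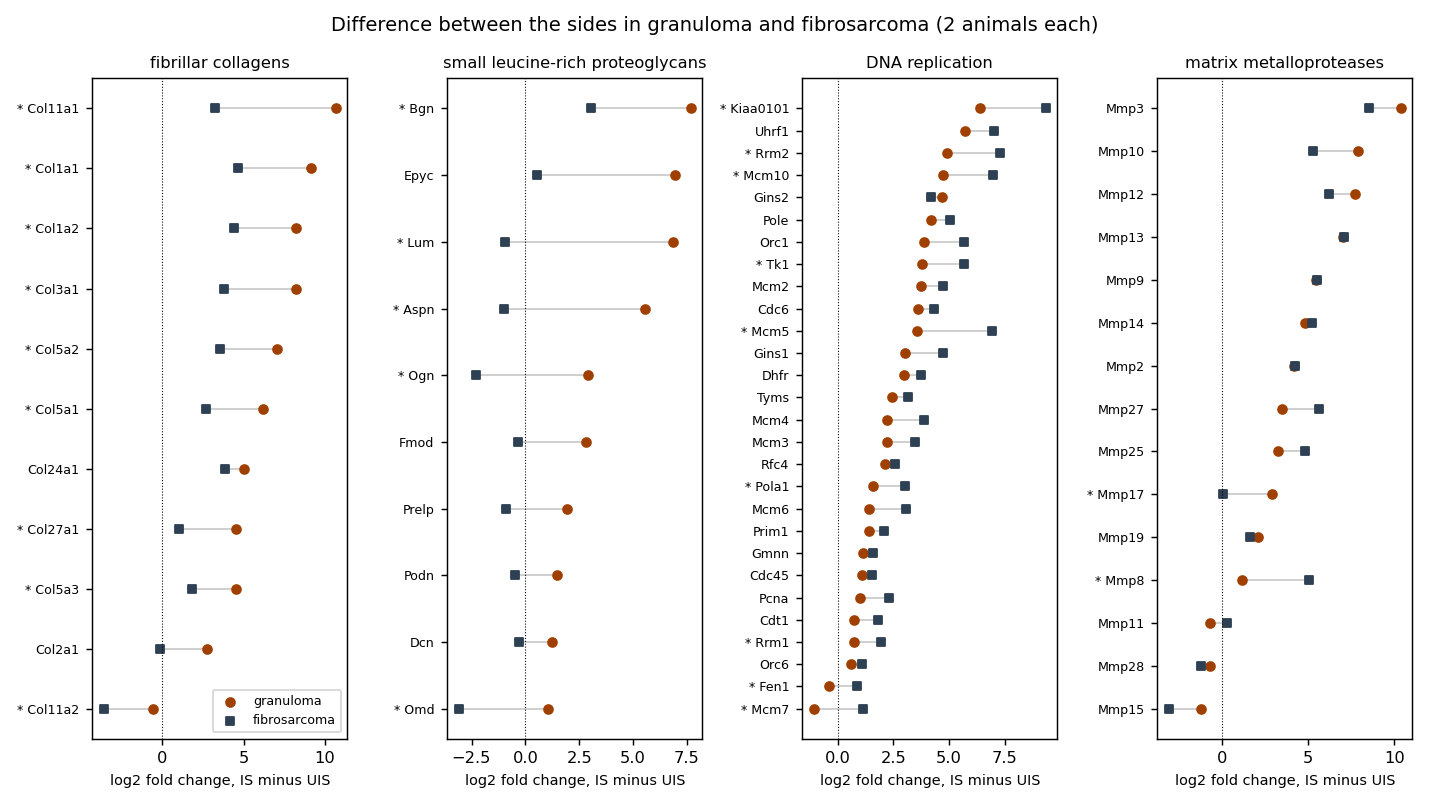
Log2 fold change (IS minus UIS, x axis) of each tested gene of 4 lists (y axis) in granuloma and in fibrosarcoma, 2 animals each, with an asterisk where the unadjusted interaction p was under 0.05. Granuloma lies to the right of fibrosarcoma in all 11 fibrillar collagens and 10 leucine-rich proteoglycans and to its left in most replication genes, while 4 of the 15 metalloproteases, Mmp2, Mmp9, Mmp13 and Mmp14, nearly coincide, and no gene passed after adjustment.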

How the data were processed

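RNA of the 4 tissue pieces was sequenced with a stranded Illumina protocol. Per the study's methods and the labels, reads were trimmed with Trimmomatic 0.33, aligned to the published Spalax genome with TopHat (version 1.4.1 in the submitters' processing notes) and counted per gene with HTSeq; the strand setting is not given in the sources used here. The deposited table holds a normalised signal, which the authors made by dividing each library's read counts by 1 size factor (DESeq in the submitters' processing notes). Dividing the values by the step between low values returned whole reads for 100% of them within 0.001, and these reads entered the count models.

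The main test was limma 3.58.1 (R 4.3.3; moderated test, trend on) of log2(value + 1) values over the 4 granuloma libraries, with no block, since the study states none, in genes with a value of at least 10 in at least 2 libraries, with Benjamini-Hochberg adjustment at 0.05. The test of fibrosarcoma against granuloma was the interaction of side and diagnosis over 8 libraries. An exact permutation test of 2 against 2 cannot go below p = 0.333 and was not used. IS and UIS samples with the same number come from the same animal, so the numbers pair them. The deviations of same-numbered samples from their group means correlated at 0.00925. The blocked limma fit is given for named genes whose call it changes, and for some lists only. With it, the complex I list had 28 falls, the mitochondrial ribosome 10 falls and the metalloproteases 7 rises. By edgeR with the animal as a block, 6 genes of the complex I list and 7 citrate cycle genes were called. Alternatives were edgeR 4.0.16 (quasi-likelihood), DESeq2 1.42.0, other scalings, filters and pseudocounts, other sets of muscle libraries, and leaving out each library. The limma and edgeR fits of IS against UIS without a block were tested on simulated data, and the other fits were not. A fold against a side at 0 uses a floor of 3 reads a library, and ratios on 1 to 3 reads carry exact 95% intervals; both cover counting error only.

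The comparison and its gene lists were chosen with earlier results of these data known. The genes named are the 15 largest rises and falls, the 10 highest genes of each side, the extreme, highest and defining members of each list, the 5 with the largest gap between the animals and the study's network; further members shown to give a list's range were chosen after their values were seen. In the gene symbols of the table, 2387 hold a comma where a t stood, and were restored. No sequence of this animal was used here, and a few genes are not reported here.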

Additional observations from a re-analysis of the deposited data

How the results depend on the processing

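The count of genes called between the sides was 3581 in limma and lay between 2692 and 4496 under TMM scaling, scaling by total reads, edgeR, no filter, a mean of at least 50, pseudocounts of 0.5 and 10, calls shared by edgeR and DESeq2 and a log2 fold change of at least 2. It moved further in 4 settings, to 5383 with DESeq2, 6314 in 1 model over all 16 Spalax libraries, 6621 with all 4 UIS libraries of animals with growths as the baseline and 1731 in edgeR with the animal as a block, the last chosen after seeing the data. The pairing of sides by animal, as a replicate block in limma, gave 3108 genes, of which 2910 were also called without it, and apart from the blocked values printed beside genes and lists, and from Acaca and Ctsd, which were lost (adjusted p = 0.0569 and 0.0831), it changed no other call on the genes named. Leaving out 1 library gave 98 to 2882 genes, where the lone library of a side is assumed to vary like the other. The comparison with fibrosarcoma gave 0 genes in limma and edgeR and 88 with DESeq2, and 0 to 4 with 1 library left out (4 without IS 2230 and 2 without granuloma IS 976). The cause of these shifts was not tested.

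None of the 244 named genes called in limma turned its direction under any alternative, and 179 to 244 of them kept their call where no library was left out. Without UIS 600 180 kept it, without UIS 976 117, without IS 600 51 and without IS 976 24. Genes that were not called turned direction as follows, with the cause not tested. With total reads Acta2 stood at 0.33, Arnt at 0.26, Ctgf at 0.29, Kdr at 0.035 and Ndufv3 at 0.12 on the log2 scale. Zic2 stood at -1.09 by edgeR, -1.15 by DESeq2, -0.32 with a pseudocount of 10 and -0.15 by edgeR with the block. Acta2 stood at 0.39 and 0.34, Actc1 at 0.94 and 0.89 and Ddit4 at -0.21 and -0.28 by edgeR and DESeq2. Against all 4 UIS libraries LOC103734123 stood at 0.83, Ttc22 at 0.79, Hbb at -0.64 and Pkm at -0.23. With 1 library left out the log2 fold change ran from -2.0 to 1.19 for Acta2, -3.49 to 1.85 for Actc1, -2.62 to 0.11 for Atf3, -0.29 to 2.69 for B2m, -0.46 to 2.66 for Cd163, -0.16 to 3.36 for Cd74, -0.59 to 1.19 for Cdk1, -4.28 to 1.28 for Cdkn1a, -1.37 to 0.48 for Ctgf, -1.53 to 3.11 for Ddit4, -0.203 to 1.07 for Eln and -3.2 to 0.12 for Fos. It ran from -0.68 to 1.78 for Hbb, -0.398 to 1.6 for Hspa5, -2.96 to 4.99 for Igf1r, -1.66 to 5.91 for Igf2, -0.87 to 6.12 for Igfbp5, -7.13 to 4.07 for LOC103734123, -0.196 to 2.26 for Omd, -0.59 to 1.79 for Pkm, -0.302 to 2.42 for Sfrp1, -3.19 to 0.23 for Tiparp, -6.1 to 3.45 for Ttc22, -0.23 to 2.41 for Vegfa and -3.86 to 5.16 for Zic2. A value of 10 rested on 13.8 reads in IS 600, 8.29 in UIS 600, 16.6 in IS 976 and 8.49 in UIS 976, so low genes were counted less firmly on the UIS.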

Other observations

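Genes outside every list extended the account of both sides. Pleiotrophin (Ptn), a heparin-binding growth factor of developing tissue, was the largest rise among them, at 7.24 and 18.8 on the UIS and 21920 and 6188 on the IS (log2 fold change 9.83 ± 0.77, adjusted p = 0.00541). The retinoic acid carrier Crabp1, on in embryonic mesenchyme, had 0 and 2.35 on the UIS and 2959 and 592 on the IS (ratio 1510, counting interval 417 to 12500, adjusted p = 0.00844). Cemip, which cuts hyaluronan, stood at 0 and 2.35 on the UIS and 934 and 178 on the IS (ratio 472, counting interval 130 to 3900, adjusted p = 0.0127). Cpa4, a carboxypeptidase, stood at 1.21 and 1.18 on the UIS and 358 and 1393 on the IS (ratio 734, counting interval 203 to 6070, adjusted p = 0.00753). The kindlin Fermt1, which activates integrins, was at 0 on both UIS and 91.5 and 915 on the IS (at least 141-fold higher, adjusted p = 0.0143), with most in IS 976. Ptk7, a Wnt co-receptor, had 30.1 and 14.1 on the UIS and 4540 and 1883 on the IS (log2 fold change 7.07 ± 0.65, adjusted p = 0.00634). The axon guidance receptor Robo2 had 3.62 and 2.35 on the UIS and 1037 and 716 on the IS (log2 fold change 7.78 ± 0.64, adjusted p = 0.00557). Cell cycle genes outside the lists were also among the largest rises. Dtl, which marks proteins for breakdown during replication, had 0 and 1.18 on the UIS and 496 and 401 on the IS (ratio 762, counting interval 137 to 30100, adjusted p = 0.00645). The cytokinesis factor Ect2 had 1.21 and 7.07 on the UIS and 534 and 680 on the IS (log2 fold change 7.16 ± 0.85, adjusted p = 0.00894). The kinase Melk had 0 and 3.53 on the UIS and 354 and 337 on the IS (ratio 195, counting interval 66.7 to 949, adjusted p = 0.0103). The neuronal enolase Eno2 rose at 8.44 and 13 on the UIS and 4628 and 728 on the IS (log2 fold change 7.32 ± 0.97, adjusted p = 0.0106) where the muscle enolase Eno3 fell.

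The largest falls outside the lists were again muscle proteins. The Z-disc protein Myoz1 had 38360 and 46580 on the UIS and 31.9 and 3.02 on the IS (log2 fold change -11.84 ± 0.99, adjusted p = 0.00557). Tcap, of the same disc, had 140700 and 157300 on the UIS and 248 and 34.4 on the IS (log2 fold change -10.63 ± 0.92, adjusted p = 0.00577). Cmya5, which binds titin and desmin, stood at 78630 and 129200 on the UIS and 120 and 5.44 on the IS (log2 fold change -11.82 ± 1.35, adjusted p = 0.00844). The muscle deaminase-family protein Apobec2 stood at 23920 and 24080 on the UIS and 32.7 and 0.604 on the IS (log2 fold change -11.67 ± 1.39, adjusted p = 0.00894). Sarcoglycan alpha (Sgca), part of the complex that ties the fiber to its basement membrane, had 6946 and 5428 on the UIS and 14.5 and 0 on the IS (log2 fold change -10.61 ± 1.3, adjusted p = 0.00927). The muscle form of a translation factor, Eef1a2, fell at 42960 and 19380 on the UIS and 109 and 4.23 on the IS (log2 fold change -10.23 ± 1.42, adjusted p = 0.0118). The muscle form of a ribosomal protein, Rpl3l, fell at 6148 and 4457 on the UIS and 6.53 and 1.81 on the IS (log2 fold change -10.15 ± 0.66, adjusted p = 0.0049). Their general forms Eef1a1 and Rpl3 were higher on the IS, Rpl3 with a call. The stress-responsive filament protein Xirp1 had 7911 and 60360 on the UIS and 76.9 and 4.83 on the IS (log2 fold change -10.00 ± 1.49, adjusted p = 0.0135). Plin5, which holds lipid droplets to mitochondria, had 802 and 5866 on the UIS and 2.18 and 0 on the IS (ratio 0.000327, counting interval 6.73e-05 to 0.000955, adjusted p = 0.00855). Both were higher in UIS 976 than in UIS 600. Apart from the genes that the rule on the 15 largest changes had named, these genes were chosen after their values were seen.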
